A study of Homo sapiens with 2 samples.

Results

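The 41 genes described here encode the enzymes of glycolysis and the transcripts that cells raise under low oxygen. They were chosen by name, with earlier results of these data known, and all 41 were found by symbol among the 36601 genes of both count matrices. Of these genes, 17 encode glycolytic enzymes, 7 encode carriers or switches that move glucose and lactate or set the rate of the pathway, and 17 are other genes of the hypoxia response. Single-cell RNA sequencing had been done on 2 cultures of RWPE1, an immortalized line of normal prostate epithelium. RWPE-ERG-mAKT cells were RWPE1 cells that carried retroviral ERG, an ETS family transcription factor, and mAKT, an AKT1 that a myristoyl group holds at the membrane in its active state, and they had been selected with hygromycin and puromycin. RWPE1 cells were the control, which the sample labels call a vector-only line and the study's text calls parental. Each condition was 1 library made from an input of 10000 cells, with no replicate, so differences between the libraries cannot be told apart from differences between 2 cultures and no test was made. All 95% intervals cover counting error only.

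In cells with enough oxygen, prolyl hydroxylases of the EGLN family mark the alpha subunits of hypoxia-inducible factor (HIF) for destruction through VHL. When oxygen is short the subunits persist, pair with ARNT and bind DNA at a short core of ACGTG or GCGTG. Their targets raise glucose uptake and lactate release, buffer acid, remodel collagen and recycle mitochondria. Glycolysis itself runs in every cell, and many of its enzymes have a paralog whose share differs between tissues.

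Levels are UMIs (counted molecules) scaled to a common library total, given as CPM. The assay counts 3′ ends of polyadenylated RNA once per molecule, so CPM was not divided by gene length. Analysis was limited to cells in which over 2500 genes were detected and mitochondrial UMIs made up under 7.5%. The study's text states a range of 200 to 2500 genes per cell, so the cells kept here lie outside that stated range. These were 14140 of 17355 barcodes of RWPE-ERG-mAKT (81.5%), with 225121037 UMIs and a median of 13601 per cell, and 9967 of 12504 barcodes of RWPE1 (79.7%), with 192789925 UMIs and a median of 16972 per cell. The median mitochondrial share was 2.73% in RWPE-ERG-mAKT cells and 5.44% in RWPE1 cells, and its part in the differences was tested only through the alternative limits given at the end. ERG had 20.8 CPM in RWPE-ERG-mAKT and 1.44 CPM in RWPE1. AKT1 had 19.1 CPM and 22.0 CPM, and 3′ counts do not separate the transgene from the cell's own AKT1. The basal keratin KRT5 had 2008 CPM in RWPE-ERG-mAKT and 2081 CPM in RWPE1. Of the 8 basal markers LAMB3 was at least 1.5-fold higher, and KRT15, TP63 and ITGA6 were at least 1.5-fold lower, with log2 ratios of −0.96, −1.20 and −0.93. That is 12.5% higher and 37.5% lower, against 20.6% and 33.3% of the 19960 genes with at least 50 UMIs. The lower share is thus close to that over all genes. The luminal keratin KRT18 had 542 CPM in RWPE-ERG-mAKT and 1198 CPM in RWPE1, whereas KLK3, which marks secretory luminal prostate cells, had 0 UMIs and 1 UMI. Of 8 fibroblast markers 6 were under 1 CPM in RWPE-ERG-mAKT and 7 in RWPE1, the exception that differed being DCN with 23.1 CPM in RWPE-ERG-mAKT and 0.23 CPM in RWPE1. All 8 endothelial and all 8 immune markers were under 1 CPM in both libraries. The libraries shared 55 barcodes.

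As a group the hypoxia response genes were higher in RWPE-ERG-mAKT than in the control, and the glycolytic enzymes were split between higher, lower and level. All 41 genes passed the minimum of 50 UMIs over both libraries. By a ratio of at least 1.5-fold, 15 of 41 (36.6%) were higher in RWPE-ERG-mAKT, against 20.6% of the 19960 genes tested, and 6 of 41 (14.6%) were lower, against 33.3% of the genes tested. The remaining 20 lay between. By at least 2-fold, 13 were higher, against 11.5% of the genes tested, and 2 were lower, against 20.2%. Among the hypoxia response genes 11 of 17 (64.7%) were higher and only DDIT4 was lower, with a median log2 ratio of 1.20. Among the glycolytic enzymes 3 of 17 (17.6%) were higher and 4 of 17 (23.5%) were lower, with a median of 0.11. Among the carriers and switches 1 of 7 was higher and 1 of 7 lower, with a median of −0.24. The median over all genes tested was −0.17, and a median-of-ratios scaling moved it to −0.02. Every log2 ratio of CPM between the libraries given below would thus be 0.15 higher on that scale.

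**Figure D1:**
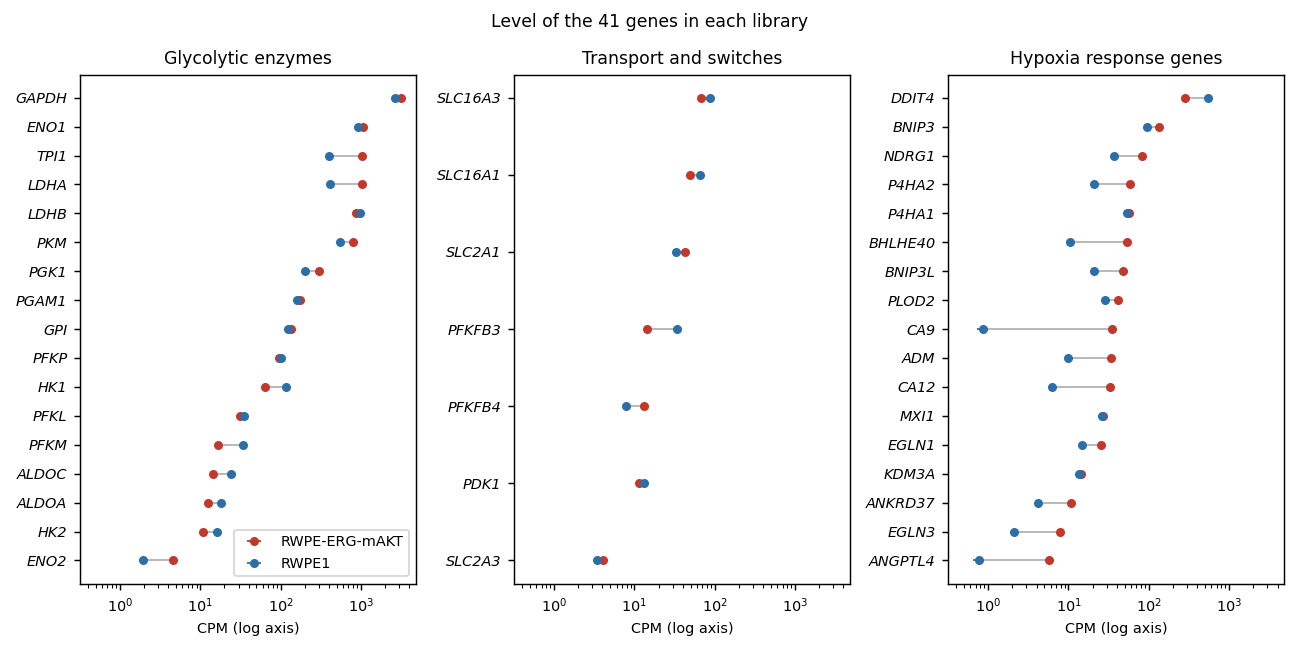
Level of each of the 41 genes (CPM, log axis) in RWPE-ERG-mAKT (red) and RWPE1 (blue), by group and ordered by the level in RWPE-ERG-mAKT. Points are single libraries and bars 95% Poisson intervals, mostly smaller than the points. The widest gap is that of CA9, at 34.4 CPM in RWPE-ERG-mAKT and 0.86 CPM in RWPE1.

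**Figure D2:**
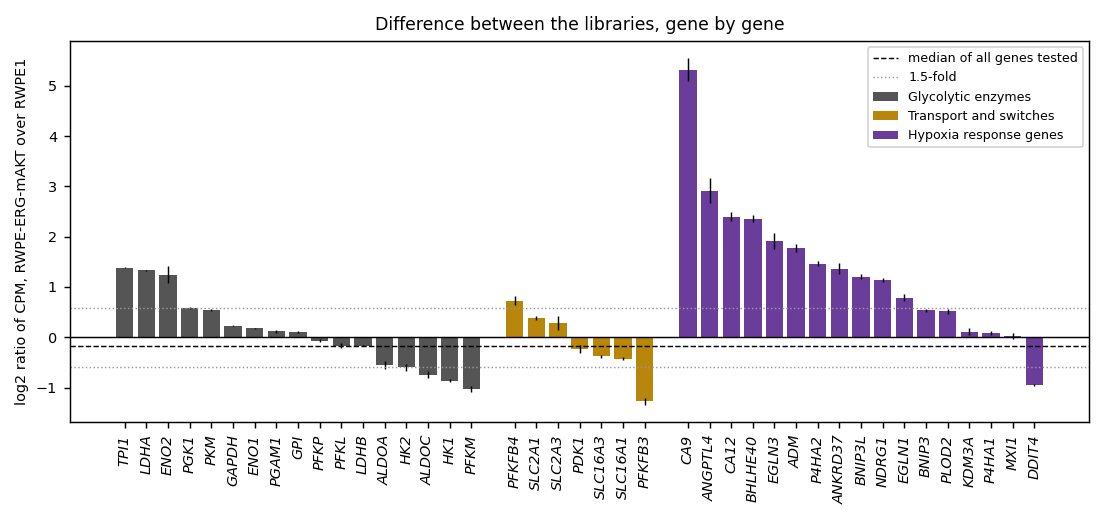
Log2 ratio of CPM, RWPE-ERG-mAKT over RWPE1, for the 41 genes by group, with 95% counting intervals. The dashed line is the median of all genes tested (−0.17) and the dotted lines mark 1.5-fold. Of the 17 hypoxia response genes 16 lie above 0, and the glycolytic enzymes lie on both sides of it.

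CA9 showed the widest difference of the 41 genes. It encodes a carbonic anhydrase at the cell surface that turns carbon dioxide into bicarbonate and is known as a direct HIF target. In GENCODE release 29 on GRCh38 it lies at chr9:35673856-35681159 on the plus strand. CA9 had 7744 UMIs (34.4 CPM, interval 33.6 to 35.2) in RWPE-ERG-mAKT and 166 UMIs (0.86 CPM, interval 0.74 to 1.00) in RWPE1, a 40-fold higher level with a log2 ratio of 5.32 (5.10 to 5.55). At least 1 CA9 UMI was found in 28.9% of RWPE-ERG-mAKT cells and 1.53% of RWPE1 cells. With every cell thinned to 5000 UMIs, the shares were 14.7% (14.1 to 15.3, exact binomial) of 14134 RWPE-ERG-mAKT cells and 0.44% (0.32 to 0.59) of 9967 RWPE1 cells. Most RWPE-ERG-mAKT cells thus had no CA9 molecule counted, and 14 cells had 10 or more, with a highest count of 17. No cell type that should lack CA9 was present within the libraries to measure free RNA.

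RefSeq promoters of 5 members are shown because these genes differed strongly between the libraries in one direction or the other, and because the HIF core can be read in them. Each runs from 250 bases before to 50 after the annotated start, on GRCh38.p14 and the plus strand, 5′ to 3′. Capitals mark ACGTG or GCGTG on either strand (CACGT and CACGC are the same letters on the other strand), and a palindromic CACGTG counts as a match on each strand.
CA9, chr9:35673678-35673977: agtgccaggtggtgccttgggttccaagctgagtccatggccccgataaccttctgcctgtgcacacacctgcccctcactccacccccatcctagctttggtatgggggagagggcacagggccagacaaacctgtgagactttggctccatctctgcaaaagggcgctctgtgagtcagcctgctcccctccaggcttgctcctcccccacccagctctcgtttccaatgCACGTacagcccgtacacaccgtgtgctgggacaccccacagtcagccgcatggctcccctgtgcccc
ANGPTL4, chr19:8363905-8364204: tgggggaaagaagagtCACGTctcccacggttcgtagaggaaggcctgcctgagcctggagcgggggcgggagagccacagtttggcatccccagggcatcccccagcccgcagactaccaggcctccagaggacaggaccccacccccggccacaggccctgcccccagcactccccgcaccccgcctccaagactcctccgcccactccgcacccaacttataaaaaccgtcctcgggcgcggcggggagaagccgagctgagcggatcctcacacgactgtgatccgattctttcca
BHLHE40, chr3:4979187-4979486: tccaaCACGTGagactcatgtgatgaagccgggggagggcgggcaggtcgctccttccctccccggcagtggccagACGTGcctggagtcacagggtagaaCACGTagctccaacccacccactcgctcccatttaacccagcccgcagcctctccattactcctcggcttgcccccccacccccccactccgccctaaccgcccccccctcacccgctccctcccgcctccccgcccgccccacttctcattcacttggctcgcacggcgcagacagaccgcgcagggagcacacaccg
LDHA, first start, chr11:18394313-18394612: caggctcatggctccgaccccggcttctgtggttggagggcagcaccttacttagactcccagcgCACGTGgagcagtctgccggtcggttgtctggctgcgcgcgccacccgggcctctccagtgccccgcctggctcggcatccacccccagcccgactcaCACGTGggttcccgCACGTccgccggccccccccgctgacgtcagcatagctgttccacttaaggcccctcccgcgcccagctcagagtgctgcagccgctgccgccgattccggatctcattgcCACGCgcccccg
LDHA, second start, chr11:18396101-18396400: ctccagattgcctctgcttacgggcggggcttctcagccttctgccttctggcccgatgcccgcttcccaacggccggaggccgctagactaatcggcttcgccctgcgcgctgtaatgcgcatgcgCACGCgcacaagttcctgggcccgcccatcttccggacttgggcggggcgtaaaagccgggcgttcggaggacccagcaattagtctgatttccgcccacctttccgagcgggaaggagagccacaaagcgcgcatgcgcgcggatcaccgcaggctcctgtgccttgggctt
DDIT4, chr10:72273674-72273973: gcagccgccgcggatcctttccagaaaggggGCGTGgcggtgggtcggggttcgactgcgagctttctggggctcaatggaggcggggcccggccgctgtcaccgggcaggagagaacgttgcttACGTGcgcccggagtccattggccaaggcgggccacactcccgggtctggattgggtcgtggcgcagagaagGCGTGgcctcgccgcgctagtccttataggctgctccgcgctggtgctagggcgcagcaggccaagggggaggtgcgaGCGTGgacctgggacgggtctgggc

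The CA9 window held 1 match, with its first base at position −18 from the start, and the ANGPTL4 window held 1 match at −234. BHLHE40 had 4 matches of ACGTG, with 1 CACGTG palindrome, all between −245 and −149. The first LDHA start had 5 matches of ACGTG, including 2 palindromes, and 1 of GCGTG, whereas the second start had 1 of GCGTG. DDIT4, which was lower in RWPE-ERG-mAKT, held 1 match of ACGTG and 3 of GCGTG. The promoter table matched 37 of the 41 genes by symbol with 66 starts, and SLC2A3, SLC16A1, NDRG1 and BNIP3L had no entry. ACGTG was present in 42.4% of the 66 member promoters and in 21.4% of all 35116 promoters of the same length. Either motif was present in 69.7% and 48.4%, and in 15 of 18 promoters of the hypoxia response genes (83.3%). Counted by gene over any of its starts, 24 of 37 members (64.9%) and 24.9% of 27305 genes had ACGTG. Members had more annotated starts per gene than other genes, so the share by gene is the less even comparison. Members with the motif included genes that were higher, genes that were lower and genes that differed by under 1.5-fold. EGLN3 and P4HA2, which were higher in RWPE-ERG-mAKT, held neither motif in their windows. A match of letters is not a measured binding site.

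The acid-handling, secreted and regulatory genes of the hypoxia response were higher in RWPE-ERG-mAKT as well. CA12, the second tumor-associated carbonic anhydrase at the cell surface, had 33.1 CPM in RWPE-ERG-mAKT and 6.29 CPM in RWPE1 (log2 2.40, 2.31 to 2.49). ANGPTL4, a secreted inhibitor of lipoprotein lipase, had 5.73 CPM in RWPE-ERG-mAKT and 0.76 CPM in RWPE1 (log2 2.91, 2.66 to 3.17). Its UMIs were spread thinly, with 6.43% of RWPE-ERG-mAKT cells and 1.39% of RWPE1 cells holding at least 1. ADM, the vasodilator peptide adrenomedullin, had 33.6 CPM in RWPE-ERG-mAKT and 9.82 CPM in RWPE1 (log2 1.77, 1.70 to 1.85). In cells with 200 to 2500 genes, the range that the study states, the ADM ratio had the other sign, at −0.22. Those cells were left out here, and only 362 of them were RWPE1 cells. BHLHE40, a transcriptional repressor of the clock and hypoxia pathways also called DEC1, had 53.6 CPM in RWPE-ERG-mAKT and 10.4 CPM in RWPE1 (log2 2.36, 2.29 to 2.43). Within the carbonic anhydrase pair, CA9 made up 50.9% of the UMIs of CA9 and CA12 in RWPE-ERG-mAKT and 12.0% in RWPE1.

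The oxygen sensors that HIF itself induces were also higher. EGLN1 encodes PHD2, the main HIF prolyl hydroxylase, and had 25.2 CPM in RWPE-ERG-mAKT and 14.6 CPM in RWPE1 (log2 0.79, 0.72 to 0.85). EGLN3, encoding PHD3, had 7.85 CPM and 2.10 CPM (log2 1.91, 1.75 to 2.07), and took 23.7% of the UMIs of the pair in RWPE-ERG-mAKT and 12.5% in RWPE1. In the annotation EGLN3 spans the gene SPTSSA on the same strand over 29568 bases, and SPTSSA had 96.6 CPM in RWPE-ERG-mAKT and 60.1 CPM in RWPE1, so the low EGLN3 count is uncertain. ANKRD37, a small ankyrin-repeat gene known as a HIF1 target, had 10.6 CPM in RWPE-ERG-mAKT and 4.11 CPM in RWPE1 (log2 1.36, 1.25 to 1.48). KDM3A, a histone H3 lysine demethylase, and MXI1, a MYC antagonist of the MAX network, differed by under 1.1-fold. KDM3A had 14.4 CPM in RWPE-ERG-mAKT and 13.3 CPM in RWPE1, and MXI1 had 26.6 CPM and 26.3 CPM.

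Genes of collagen processing and of mitochondrial turnover were also split, with a wider ratio for 1 paralog of each pair. P4HA2, a catalytic subunit of collagen prolyl 4-hydroxylase, had 57.5 CPM in RWPE-ERG-mAKT and 20.9 CPM in RWPE1 (log2 1.46, 1.41 to 1.51). Its paralog P4HA1 had 57.2 CPM and 54.0 CPM (log2 0.08), so P4HA2 made up 50.1% of the UMIs of the pair in RWPE-ERG-mAKT and 27.9% in RWPE1. PLOD2, a lysyl hydroxylase for collagen cross-links, had 41.01 CPM in RWPE-ERG-mAKT and 28.6 CPM in RWPE1 (log2 0.52). BNIP3L, a mitophagy receptor also called NIX, had 48.2 CPM in RWPE-ERG-mAKT and 20.9 CPM in RWPE1 (log2 1.20, 1.15 to 1.26). The related receptor BNIP3 had 136 CPM and 93.7 CPM (log2 0.53), just short of 1.5-fold. NDRG1, a stress-induced cytoplasmic protein, had 81.2 CPM in RWPE-ERG-mAKT and 37.1 CPM in RWPE1 (log2 1.13, 1.09 to 1.17), although the share of cells with at least 1 UMI was 47.4% in RWPE-ERG-mAKT and 41.1% in RWPE1. In cells with 7.5% or more mitochondrial UMIs, which were left out, the log2 ratio was 0.06 for NDRG1 and 0.26 for BNIP3L. Those were 107 RWPE-ERG-mAKT cells and 1575 RWPE1 cells. In cells with 200 to 2500 genes the log2 ratio was 0.46 for P4HA2 and 0.04 for EGLN1, from 2775 RWPE-ERG-mAKT cells and 362 RWPE1 cells.

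DDIT4 ran against its group. It encodes REDD1, an inhibitor of mTORC1 that low oxygen, glucocorticoids and the stress factor ATF4 are each known to induce. DDIT4 had 280 CPM (277.5 to 282) in RWPE-ERG-mAKT and 539 CPM (536 to 542) in RWPE1 (log2 −0.95, −0.96 to −0.93), and it was the most abundant of the 17 genes by CPM in both libraries. With DDIT4, the summed level of the 17 genes was 945 CPM in RWPE-ERG-mAKT and 883 CPM in RWPE1. Without it, the other 16 summed to 666 CPM in RWPE-ERG-mAKT and 344 CPM in RWPE1. Of 10 genes of the ATF4 response, 6 (60.0%) were at least 1.5-fold lower, against 33.3% of all genes tested, and 3 (30.0%) higher, against 20.6%, with a median log2 ratio of −1.27. ATF3, a stress-induced transcription factor, had 70.4 CPM in RWPE-ERG-mAKT and 13.7 CPM in RWPE1 (log2 2.36). The serine synthesis enzyme PSAT1 had 35.4 CPM in RWPE-ERG-mAKT and 140 CPM in RWPE1. TRIB3, a pseudokinase that ATF4 induces, had 16.9 CPM and 52.0 CPM. The part of these genes in the lower DDIT4 was not tested.

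Glycolytic enzymes took a larger share of all UMIs in RWPE-ERG-mAKT, 0.88% against 0.68% in RWPE1, and most of that came from 2 enzymes. TPI1, triosephosphate isomerase, had 1040 CPM in RWPE-ERG-mAKT and 399.6 CPM in RWPE1 (log2 1.38, 1.37 to 1.39). LDHA, the lactate dehydrogenase subunit that favors reduction of pyruvate to lactate, had 1026 CPM in RWPE-ERG-mAKT and 407 CPM in RWPE1 (log2 1.33, 1.32 to 1.34). Without these enzymes the other 15 summed to 0.67% of UMIs in RWPE-ERG-mAKT and 0.59% in RWPE1, with a median log2 ratio of −0.07, which the shift of 0.15 under the other scaling would turn positive. LDHB, the subunit that favors the reverse reaction, had 863 CPM in RWPE-ERG-mAKT and 972 CPM in RWPE1 (log2 −0.17). LDHA therefore made up 54.3% of the lactate dehydrogenase UMIs in RWPE-ERG-mAKT and 29.5% in RWPE1.

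The steps before the split of fructose bisphosphate were level or lower. Hexokinases phosphorylate glucose on entry. HK1 had 63.6 CPM in RWPE-ERG-mAKT and 116 CPM in RWPE1 (log2 −0.86, −0.89 to −0.83), and the inducible HK2 had 10.8 CPM and 16.3 CPM (log2 −0.60). In cells with under 2.5% mitochondrial UMIs the log2 ratio was 0.080 for HK2 and −0.58 for HK1, both short of 1.5-fold. Those were 5832 RWPE-ERG-mAKT cells but only 195 RWPE1 cells. Glucose-6-phosphate isomerase, GPI, had 133 CPM in RWPE-ERG-mAKT and 124 CPM in RWPE1. Of the 3 phosphofructokinases, which catalyze the committed step, the muscle form PFKM had 16.6 CPM in RWPE-ERG-mAKT and 33.8 CPM in RWPE1 (log2 −1.03, −1.09 to −0.97). The platelet form PFKP had 96.5 CPM and 101 CPM, and the liver form PFKL had 31.6 CPM and 35.4 CPM. PFKP made up 66.7% of the family's UMIs in RWPE-ERG-mAKT and 59.4% in RWPE1, and PFKM 11.5% and 19.8%. ALDOC, the brain aldolase, had 14.6 CPM in RWPE-ERG-mAKT and 24.4 CPM in RWPE1 (log2 −0.74). All 4150 bases of ALDOC lie within the annotated gene AC005726.1 on the same strand, so its level is uncertain. AC005726.1 had 1520 UMIs in RWPE-ERG-mAKT and 1648 UMIs in RWPE1. ALDOA was counted at only 12.5 CPM in RWPE-ERG-mAKT and 18.3 CPM in RWPE1 (log2 −0.55). It overlaps the annotated gene AC093512.2 on the same strand over 6257 of its bases, so reads could be lost to ambiguity and the ALDOA level is uncertain.

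The later steps were level or somewhat higher. GAPDH, which makes the first NADH of the pathway, had 3136 CPM in RWPE-ERG-mAKT and 2669 CPM in RWPE1 (log2 0.23). PGK1, the first step that yields ATP, had 302 CPM in RWPE-ERG-mAKT and 203 CPM in RWPE1 (log2 0.58), and PKM, pyruvate kinase, had 793 CPM and 545 CPM (log2 0.54). Both were just below 1.5-fold. PGAM1, phosphoglycerate mutase, had 174 CPM in RWPE-ERG-mAKT and 161 CPM in RWPE1. ENO1, the ubiquitous enolase, had 1051 CPM in RWPE-ERG-mAKT and 929 CPM in RWPE1 (log2 0.18). ENO2, the enolase of neurons, was at least 1.5-fold higher but rare, with 4.58 CPM in RWPE-ERG-mAKT and 1.94 CPM in RWPE1 (log2 1.24), and it made up 0.43% of enolase UMIs in RWPE-ERG-mAKT and 0.21% in RWPE1. Several of these enzymes have near-identical processed pseudogenes that could share reads with them, so their levels are less certain than the intervals show.

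Of the switches that set glycolytic rate, the bifunctional enzymes that make and remove fructose-2,6-bisphosphate moved apart. PFKFB3, the form with the strongest kinase activity, had 14.2 CPM in RWPE-ERG-mAKT and 34.4 CPM in RWPE1 (log2 −1.28, −1.34 to −1.22). PFKFB4 had 13.1 CPM in RWPE-ERG-mAKT and 7.91 CPM in RWPE1 (log2 0.73, 0.64 to 0.82). In cells with 10000 to 20000 UMIs the PFKFB4 ratio was 0.56, just below 1.5-fold. PFKFB4 made up 48.0% of the UMIs of the pair in RWPE-ERG-mAKT and 18.7% in RWPE1. PDK1, the kinase that shuts pyruvate dehydrogenase and is a known HIF1 target, had 11.3 CPM in RWPE-ERG-mAKT and 13.3 CPM in RWPE1. The glucose carrier SLC2A1 (GLUT1) had 42.9 CPM and 32.9 CPM (log2 0.38), and SLC2A3 (GLUT3) had 4.12 CPM and 3.38 CPM. The lactate carriers were both somewhat lower, SLC16A1 (MCT1) with 48.6 CPM in RWPE-ERG-mAKT and 65.1 CPM in RWPE1, and SLC16A3 (MCT4), the hypoxia-inducible exporter, with 66.9 CPM and 87.0 CPM. These carrier differences were all under 1.5-fold.

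**Figure D3:**
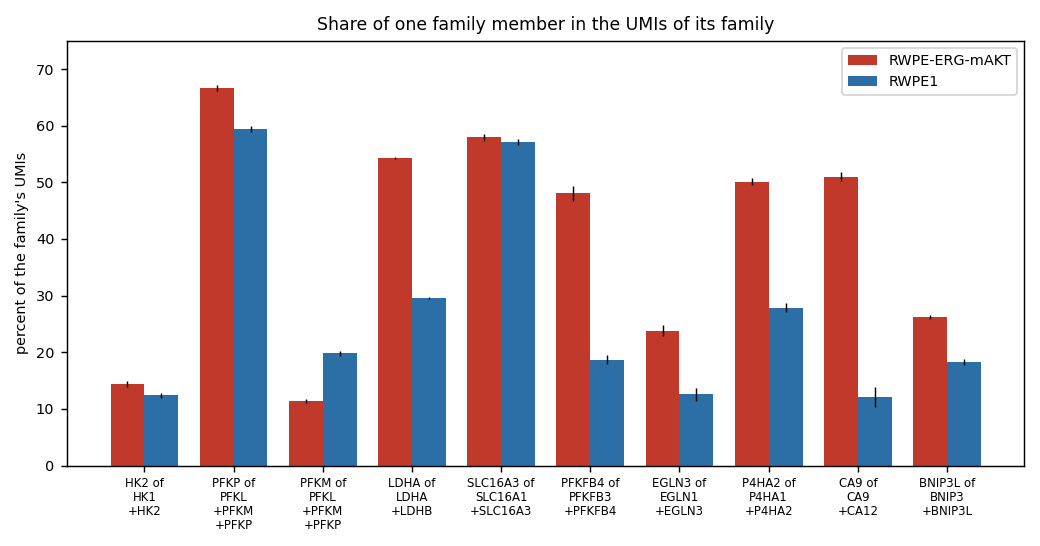
Share of 1 member in the UMIs of its family (percent, 95% exact binomial intervals), RWPE-ERG-mAKT (red) left of RWPE1 (blue). LDHA, PFKFB4, P4HA2 and CA9 take between 48.0% and 54.3% of their families in RWPE-ERG-mAKT and between 12.0% and 29.5% in RWPE1, whereas the SLC16A3 shares are 57.9% and 57.2%.

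The factors themselves and neighboring pathways showed smaller or mixed differences. HIF1A had 242 CPM in RWPE-ERG-mAKT and 199 CPM in RWPE1 (log2 0.28), EPAS1, which encodes HIF2α, had 55.3 CPM and 63.2 CPM, and ARNT had 18.9 CPM and 19.9 CPM. Of the 11 tested genes of HIF and oxygen sensing, 1 was at least 1.5-fold higher and 1 lower (9.09% each, against 20.6% and 33.3% of all genes tested), with a median of 0.12. A list of 26 further hypoxia-inducible genes, 25 of them tested, had 12 higher (48.0%) and 3 lower (12.0%), with a median of 0.14. LOX, the collagen cross-linking enzyme, had 40.4 CPM in RWPE-ERG-mAKT and 4.19 CPM in RWPE1. MIF, a cytokine, had 2035 CPM and 784 CPM, and the glycogen branching enzyme GBE1 had 130 CPM and 38.3 CPM. Lower in RWPE-ERG-mAKT were STC2 (9.48 CPM and 33.0 CPM), GYS1 (12.6 CPM and 31.7 CPM) and KDM4C (11.9 CPM and 26.6 CPM). VEGFA, the angiogenic HIF target, was named after its values were seen and had 11.3 CPM in RWPE-ERG-mAKT and 16.8 CPM in RWPE1 (log2 −0.57). Of 15 genes of the pentose phosphate pathway and glycogen, 3 were higher (20%) and 2 lower (13.3%), the first close to the share over all genes. Of 13 genes that bring pyruvate into mitochondria, 2 were higher (15.4%) and 3 lower (23.1%), both under the shares over all genes. Among these PDK4, named after its values were seen, had 1130 UMIs in RWPE-ERG-mAKT and 6 UMIs in RWPE1.

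Cells of the same library differed in these genes, and more so in RWPE-ERG-mAKT. At 5000 UMIs per cell, the 16 hypoxia response genes other than DDIT4 summed to a mean of 3.50 UMIs per RWPE-ERG-mAKT cell and 1.73 per RWPE1 cell. The 90th percentile was 7 UMIs in RWPE-ERG-mAKT and 4 in RWPE1, and 8.87% of RWPE-ERG-mAKT cells and 19.8% of RWPE1 cells had none. The variance over the mean of this sum, which is 1 for pure counting, was 2.40 in RWPE-ERG-mAKT and 1.21 in RWPE1. The glycolytic sum had a median of 42 UMIs per cell in RWPE-ERG-mAKT and 33 in RWPE1, with variance over mean of 3.48 and 2.18. By single genes the ratio in RWPE-ERG-mAKT was highest for GAPDH (3.1), DDIT4 (1.99), NDRG1 (1.93), LDHA (1.76) and CA9 (1.62), and in RWPE1 these genes had 2.27, 1.80, 1.33, 1.18 and 1.04. This ratio rises with the mean count at equal relative spread, so it does not rank genes or libraries of unlike level by spread. GAPDH averaged 15.8 UMIs per cell in RWPE-ERG-mAKT and 13.2 in RWPE1, and CA9 averaged 0.20 and 0.0045. At so low a mean the RWPE1 value of CA9 says little about spread.

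The hypoxia response genes varied together across RWPE-ERG-mAKT cells and hardly at all across RWPE1 cells. Correlations were Pearson's r of log2(count + 1) at 5000 UMIs per cell, and are descriptions over 14134 cells of RWPE-ERG-mAKT and 9967 of RWPE1. Cells of 1 library share its culture, preparation and base composition, so no p is given. Over the 105 pairs of the 15 hypoxia response genes with a mean of at least 0.05 UMI, the median r was 0.033 in RWPE-ERG-mAKT, and 58 pairs (55.2%) lay above 0.026, the 95th percentile of all 37415575 gene pairs. In RWPE1 the median over 55 pairs of 11 genes was −0.0015, and 4 pairs (7.27%) lay above the corresponding percentile, 0.025. Over the same 11 genes in both libraries, each thinned to the lower of its mean levels, the median was 0.024 in RWPE-ERG-mAKT and −0.0018 in RWPE1, and 15 pairs in RWPE-ERG-mAKT and 1 pair in RWPE1 exceeded 0.05. Most single values were weak, as sparse counts give. The values for single genes given here were taken without that thinning to equal means. At equal means the highest r of any pair of the 11 genes was 0.14 in RWPE-ERG-mAKT and 0.058 in RWPE1. NDRG1 and BNIP3 had r of 0.21 in RWPE-ERG-mAKT and −0.0036 in RWPE1. NDRG1 had r of 0.21 to CA9 and 0.19 to CA12 in RWPE-ERG-mAKT, and both of these genes were under the mean of 0.05 UMI in RWPE1, which leaves no comparable value there. NDRG1 correlated at 0.31 with the summed other hypoxia response genes in RWPE-ERG-mAKT and at 0.018 in RWPE1. ADM, although higher in RWPE-ERG-mAKT, had r of only 0.013 with that sum.

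**Figure D4:**
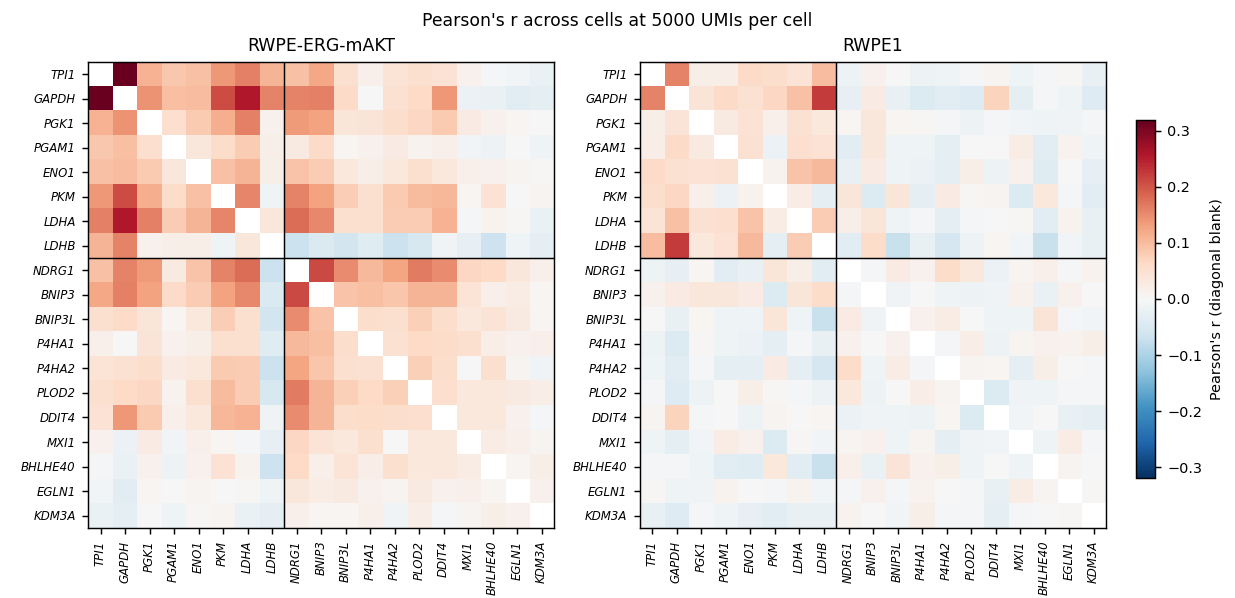
Pearson's r between pairs of 8 glycolytic enzymes and 11 hypoxia response genes across cells at 5000 UMIs per cell, RWPE-ERG-mAKT left and RWPE1 right, with black lines between the groups and the diagonal blank. In RWPE-ERG-mAKT the block of NDRG1, BNIP3, BNIP3L, P4HA1, P4HA2, PLOD2 and DDIT4 is positive and LDHB is negative with most of them, and in RWPE1 the same block lies near 0.

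Glycolytic enzymes were correlated in both libraries, and in RWPE-ERG-mAKT also with the hypoxia response genes. Over 120 pairs of 16 enzymes, the median r was 0.018 in RWPE-ERG-mAKT and 0.011 in RWPE1. Above the percentile of all gene pairs lay 47 pairs (39.2%) in RWPE-ERG-mAKT and 33 pairs (27.5%) in RWPE1. That percentile was not matched for level, and several of these enzymes are abundant, so the shares are not particular to the pathway. TPI1 and GAPDH had r of 0.32 in RWPE-ERG-mAKT and 0.16 in RWPE1, and GAPDH and LDHA had 0.26 and 0.095. GAPDH and LDHB ran the other way, at 0.16 in RWPE-ERG-mAKT and 0.22 in RWPE1. These values were taken at each library's own level, and TPI1 and LDHA had higher means in RWPE-ERG-mAKT. With each enzyme thinned to the lower of its mean levels, the highest r of any pair was 0.20 in RWPE-ERG-mAKT and 0.21 in RWPE1. The median was then 0.016 in RWPE-ERG-mAKT and 0.0091 in RWPE1, and 24 pairs and 12 pairs exceeded 0.05. The per-cell sum of the hypoxia response genes correlated with the glycolytic sum at 0.25 in RWPE-ERG-mAKT and −0.0076 in RWPE1. LDHA followed NDRG1 at 0.18 in RWPE-ERG-mAKT and 0.018 in RWPE1, while LDHB was at −0.070 and −0.034. The glycolytic sum also correlated with the mitochondrial share, at −0.22 in RWPE-ERG-mAKT and −0.21 in RWPE1, and the part of that share in these values was not tested.

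Among 8614 other genes, the 10 most correlated with the hypoxia response sum in RWPE-ERG-mAKT included KRT14, KRT5 and ITGB4 of the basal marker list. KRT14 led with r of 0.39, followed by the small heat shock protein HSPB1 (0.37), the BMP target ID1 (0.31), KRT17 (0.30) and KRT5 (0.30), and the next 5 were PMEPA1, BASP1, GSTP1, ITGB4 and LGALS1. In RWPE1 the highest were ID1 (0.11), EIF1 (0.10), JUNB, CEBPB and SLC38A2, with TRIB3, PSAT1, IER3, ZFP36L1 and EIF2S2 completing the 10. DDIT4 gave 2.69 of the mean of 4.42 UMIs of this sum per RWPE1 cell, and without it none of these 10 was among the highest 10, which TSHZ2 (0.080) and TNC (0.062) led, while TRIB3 was at −0.017 and PSAT1 at −0.028. Without DDIT4 in the sum, KRT14 had r of 0.40 in RWPE-ERG-mAKT and 0.031 in RWPE1. The summed basal list of 8 markers correlated with the hypoxia sum at 0.39 in RWPE-ERG-mAKT and 0.037 in RWPE1. KRT5 and KRT14 made up most of that list in RWPE-ERG-mAKT, with 2008 CPM and 2191 CPM of 4961 CPM. The other basal markers therefore weighed little in this value. Between the libraries KRT14 itself differed by under 1.5-fold, with 2191 CPM in RWPE-ERG-mAKT and 1600 CPM in RWPE1. Cell cycle genes did not follow the sum, with r of −0.022 for S phase and −0.027 for G2/M in RWPE-ERG-mAKT.

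Within RWPE-ERG-mAKT, cells in which CA9 was counted had more of most other hypoxia response genes and of KRT14. At 5000 UMIs, 2074 of 14134 cells had CA9 and 12060 did not, a division made on the measured gene itself that misses cells by chance. Their median depth before thinning was 11588 and 14017.5 UMIs, and their median mitochondrial share 2.71% and 2.73%. Of the other 40 genes, 9 were at least 1.5-fold higher in CA9-detected cells, against 5.24% of 14821 genes, and none was at least 1.5-fold lower, against 6.26%. NDRG1 averaged 2.46-fold higher (log2 1.30, 1.22 to 1.38), ANGPTL4 had a log2 ratio of 1.26, EGLN3 1.16, CA12 1.02, BNIP3L 0.85, BNIP3 0.78, ENO2 0.76, PLOD2 0.72 and SLC2A1 0.62. The glycolytic enzymes had a median of 0.23, from 0.76 for ENO2 to −0.13 for LDHB, and ADM was at −0.01. KRT14 averaged 21.9 UMIs per CA9-detected cell and 10.9 per CA9-undetected cell. KRT19, a simple-epithelium keratin named after its values were seen, averaged 0.74 and 2.47.

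**Figure D5:**
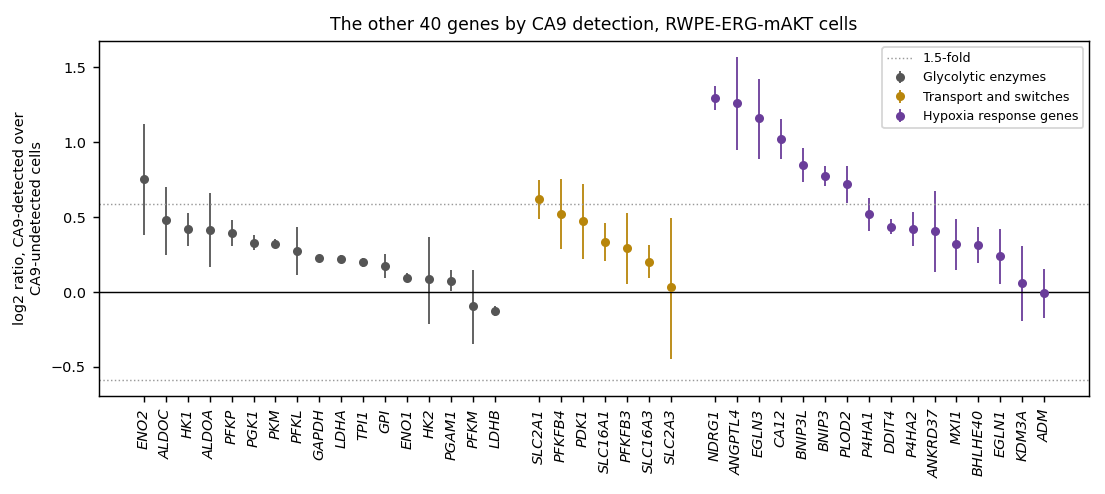
Log2 ratio of the mean level at 5000 UMIs in CA9-detected over CA9-undetected RWPE-ERG-mAKT cells for the other 40 genes, with 95% counting intervals and dotted lines at 1.5-fold. NDRG1, ANGPTL4, EGLN3 and CA12 lie above 1, and LDHB, PFKM and ADM lie below 0.

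Ratios over RWPE1 were also taken for the CA9-undetected cells alone, which are those with no CA9 UMI left after thinning. Before thinning, 4087 RWPE-ERG-mAKT cells had at least 1 CA9 UMI, against 2074 after it. The CA9-undetected cells thus include cells in which CA9 was counted at full depth, and are not a group free of CA9. Of the other 40 genes 14 (35.0%) were at least 1.5-fold higher in CA9-undetected RWPE-ERG-mAKT cells, against 20.3% of 16355 genes, and 7 (17.5%) were lower, against 29.9%. In CA9-undetected RWPE-ERG-mAKT cells over RWPE1 cells, the log2 ratio was 2.97 for ANGPTL4, 2.25 for BHLHE40, 2.21 for CA12, 1.88 for ADM, 1.34 for TPI1 and 1.28 for LDHA, and −0.98 for DDIT4. NDRG1 was at 0.89 there, against 1.16 over all cells at the same depth.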

How the data were processed

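Single-cell 3′ RNA libraries of RWPE-ERG-mAKT and RWPE1, 1 of each, were analyzed. Per the submitters' processing notes, hg38 and Cell Ranger 7.1.0 were used by the authors, whose deposited tables are raw UMI counts of each gene in each barcode, not normalized. Cells with over 2500 genes and under 7.5% mitochondrial UMIs were kept, and no doublet caller was run. UMIs were summed per library and scaled to CPM with 95% intervals from the exact Poisson distribution, and ratios carry exact conditional binomial intervals, all for counting error only. A call was a ratio of at least 1.5-fold among genes with at least 50 UMIs over both libraries, and no p-value was computed. For shares of cells, per-cell sums and correlations each cell was thinned to 5000 UMIs without replacement (seed 1), which left out 6 RWPE-ERG-mAKT cells and no RWPE1 cell. Family shares carry Clopper-Pearson intervals. The 41 genes and all gene lists were chosen with earlier results of these data known. All 41 genes are given, with up to 3 genes of other lists by size of ratio among those of at least 20 CPM and the 10 genes most correlated with the hypoxia sum, except where a gene is said to be named after its values were seen and except ERG, AKT1, SPTSSA, HIF1A, EPAS1, ARNT and the cell type markers, which were named for what they are. Coordinates are from GENCODE release 29, which holds 34616 of the 36601 identifiers, and 10 of the 41 genes overlap another gene of the files on the same strand. Promoters are from RefSeq on GRCh38.p14. Computation used scipy 1.17.1, numpy 2.4.6, matplotlib 3.10.9 and pandas 2.3.3 under Python 3.11.15, and the steps were tested on simulated data. Alternatives were other limits on genes, UMIs and mitochondrial share, other scalings, filters and thinning depths, and cells without cycling or the deepest barcodes.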

Additional observations from a re-analysis of the deposited data

Results flagged for a closer look

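CA9 was also counted in barcodes that the limits on genes and mitochondrial share left out. In these 3215 barcodes of RWPE-ERG-mAKT it had 741 UMIs, or 59.9 CPM (55.7 to 64.4), and in the 2537 left-out barcodes of RWPE1 it had 24 UMIs, or 0.98 CPM (0.63 to 1.45). The level in the left-out RWPE-ERG-mAKT barcodes was above the 34.4 CPM of the kept cells.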

How the results depend on the processing

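The counts of 15 genes at least 1.5-fold higher and 6 lower stayed within 1.5 times under all 15 alternatives, and 9 of the 15 higher and 4 of the 6 lower passed 1.5-fold in every one that gave a value. CA9 gave no finite ratio in cells with 200 to 2500 genes, where RWPE1 had none. Some alternatives rest on few cells of 1 library. With 7.5% or more mitochondrial UMIs there were 107 RWPE-ERG-mAKT and 1575 RWPE1 cells, and under 2.5% there were 5832 and 195. With 200 to 2500 genes there were 2775 RWPE-ERG-mAKT and 362 RWPE1 cells. The median log2 ratio of the glycolytic enzymes (0.11) became 0.20 in cells with 200 to 2500 genes, −0.25 in cells with 7.5% or more mitochondrial UMIs, 0.022 under 2.5% and 0.081 between these limits, 0.26 with median-of-ratios scaling and 0.040 without mitochondrial and ribosomal protein genes in the total. That of the other 24 genes (0.63) became 0.80 in cells with 200 to 2500 genes, 0.56 in cells with 10000 to 20000 UMIs, 0.76 under 2.5% mitochondrial UMIs, 0.78 with median-of-ratios scaling and 0.56 without mitochondrial and ribosomal protein genes. The median r of glycolytic enzymes in RWPE-ERG-mAKT was 0.035 at 10000 UMIs per cell. Among the called genes, ratios changed sign for HK2 (0.080, under 2.5% mitochondrial UMIs) and ADM (−0.22, 200 to 2500 genes). Of the 20 genes under 1.5-fold, 12 changed sign under at least 1 alternative, PFKP under 4, MXI1 under 3, GAPDH, PGAM1 and SLC16A1 under 2 each, and GPI, ENO1, LDHB, SLC2A3, SLC16A3, BNIP3 and P4HA1 under 1 each, so the sign of these ratios depends on the setting. Differences in family share changed sign, in points, for HK2 (−5.22) and PFKL (−2.80) in cells with 200 to 2500 genes, for PFKL under 2.5% mitochondrial UMIs (−0.74), and for SLC16A3 in cells with 200 to 2500 genes (−14.4), with 7.5% or more mitochondrial UMIs (−7.22), under 2.5% (−5.90) and between these limits (−2.08). The cause was not tested in any of these. Of all 614 single-gene values 352 stayed within the counting interval of the value given. The limits of 2.5% and the shared barcodes, the equal mean levels and the settings for CA9-detected cells were chosen after seeing the data. No paired analysis was possible because each condition was 1 library. Depth limits ENO2, SLC2A3, EGLN3 and ANGPTL4 most, which were counted in few cells.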
